A study of Mus musculus with 6 samples.

Results

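The mitochondrial ribosomal protein genes were taken as the genes whose symbol starts with Mrpl or Mrps followed by a digit, with at least 10 counts summed over the 6 libraries. Of 37620 genes in the table, 80 had such a symbol and 79 of these met the count minimum, 49 named for the large subunit (Mrpl) and 30 for the small subunit (Mrps). The gene just outside the minimum was the pseudogene Mrps36-ps2 with 9 counts, and the one just inside was the pseudogene Mrpl48-ps with 17 counts. The other pseudogenes were Mrps36-ps1 with 88 counts and Mrpl23-ps1 with 251 counts. All 76 members that are not pseudogenes passed the expression filter of the test, as did Mrps36-ps1 and Mrpl23-ps1, which gave 78 tested members. Mrpl48-ps was counted but not tested.

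The mitochondrial ribosome translates the few messenger RNAs made from mitochondrial DNA, all of which encode subunits of the oxidative phosphorylation complexes. Its ribosomal RNAs are transcribed from mitochondrial DNA, while all of its proteins are encoded in the nucleus, made on cytoplasmic ribosomes and imported. Some of these proteins have counterparts in bacterial ribosomes and others are found in mitochondrial ribosomes only. Activated B cells increase their mitochondrial mass and respiration as they grow.

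Splenic B cells of C57Bl/6 mice, 4 months of age, were cultured with 1 µg/ml of an antibody to CD40 (anti-CD40) plus 12.5 µg/ml of IL-4, a combination that drives B cell division and class switching. They received the retroviral vector pMIR-Sox2, which carries the transcription factor Sox2, or the vector pMIR, at 24 and 48 h, and mCherry-expressing cells were sorted at 96 h. Each arm had 3 libraries of total RNA, and every cell of both arms had been stimulated and infected, so no library came from resting or uninfected cells. The sort was on the vector's reporter, and forced Sox2 expression from a retrovirus is a model of ectopic expression.

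Sox2 stood at 989, 786 and 624 CPM (counts scaled by the effective library size) in the pMIR-Sox2 libraries, against 0.738, 0.334 and 1.78 CPM in the pMIR libraries. Libraries held between 17153805 and 20770447 gene counts in pMIR-Sox2 cells and between 21421769 and 27692437 in pMIR cells. On the leading principal component, with 83.4% of the variance, pMIR-Sox2 replicate 3 lay at -35, nearer to the pMIR libraries (52.1 to 54.9) than pMIR-Sox2 replicates 1 and 2 (-57.9 and -68.3). All 7 B cell markers were detected, and their summed level was 6090 to 8530 CPM in pMIR-Sox2 cells and 11200 to 13200 CPM in pMIR cells. Most of this sum was Cd74, at 4370 CPM in pMIR-Sox2 cells and 8960 CPM in pMIR cells, and of the 7 markers 4 were lower, Pax5 and Ebf1 were higher and Cd79a did not pass. All 6 T cell markers summed to at most 0.138 CPM in pMIR-Sox2 cells and 0.524 CPM in pMIR cells, with Trbc2 at 0. The 7 myeloid markers summed to 29.6 to 36.4 CPM in pMIR-Sox2 cells and 18.3 to 21.7 CPM in pMIR cells, with S100a8 and S100a9 at 0. Most of this sum was Emr1, at 27.4 CPM in pMIR-Sox2 cells and 18.6 CPM in pMIR cells. Of the 4 myeloid markers tested, Emr1, Itgam and Lyz2 were higher and Csf1r did not pass. Itgam had 3.79 CPM in pMIR-Sox2 cells and 0.558 CPM in pMIR cells (log2 fold change 2.76, edgeR adjusted p = 0.000149). Lyz2 had 0.653 CPM in pMIR-Sox2 cells and 0.0283 CPM in pMIR cells (log2 fold change 4.25, edgeR adjusted p = 0.000604). The 6 NK and erythroid markers summed to 1.88 to 2.61 CPM in pMIR-Sox2 cells and 2.14 to 3.07 CPM in pMIR cells, with Ncr1, Hba-a1 and Hbb-b1 at 0. The part of these marker levels in the results was not tested. In these bulk libraries, fewer cells of a type and less RNA per cell cannot be told apart.

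Transcripts of the mitochondrial ribosomal proteins were on balance lower in pMIR-Sox2 cells, by small amounts. Of the 78 tested members, 28 were lower and 4 were higher at an edgeR adjusted p below 0.05, and 46 did not pass. Of all 12899 genes tested, 43.2% passed the same threshold, 20.0% lower and 23.2% higher. The median log2 fold change was -0.24 over the members and -0.02 over all genes tested. Of the members, 62 had a negative fitted change, as did 51.3% of all genes tested. In 42 members every pMIR-Sox2 library lay below every pMIR library, and in 4 every one lay above. Among all genes tested, the groups did not overlap in 56.5%, with 27.6% lower and 28.9% higher. The highest fitted change, 0.39, was that of Mrpl53, which had 17 to 23 counts in each library and did not pass.

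**Figure D1:**
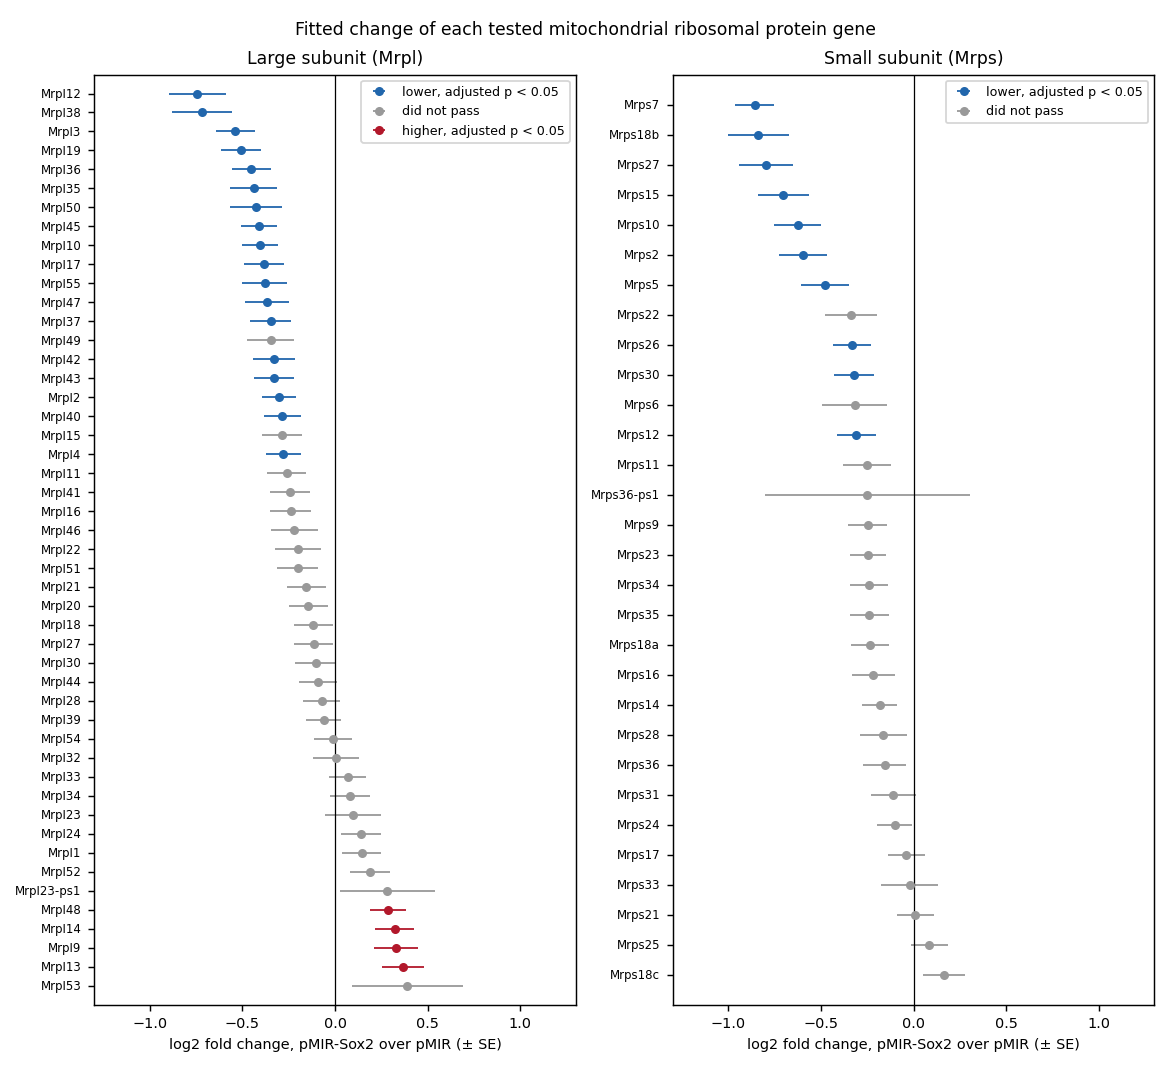
Fitted log2 fold change of pMIR-Sox2 over pMIR for each of the 78 tested members (points, bars are SE), large subunit on the left and small subunit on the right, with blue for lower, red for higher and grey for members that did not pass. Most points lie left of 0, and the 4 red points are all in the large subunit panel.

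The median change was negative in both subunits. Of 48 tested large subunit genes, 18 were lower, 4 were higher and 26 did not pass, with a median log2 fold change of -0.21 and a range of -0.74 to 0.39. Of 30 tested small subunit genes, 10 were lower and 20 did not pass, with a median of -0.25 and a range of -0.86 to 0.16. No small subunit gene was higher by edgeR, DESeq2 or limma-voom, and 0 were higher at an unadjusted edgeR p below 0.05. The difference between the subunits was not tested. With the replicate number as a block in the fit, 21 large and 13 small subunit genes were lower and 4 large subunit genes were higher. The 6 members gained under the block were Mrpl11, Mrpl15, Mrpl49, Mrps9, Mrps22 and Mrps23. With scaling by library totals alone, 9 large subunit genes were lower and 4 were higher. Without pMIR replicate 1, 7 large and 6 small subunit genes were lower, and the large subunit count was 8, 9 and 10 without pMIR-Sox2 replicate 1, pMIR-Sox2 replicate 2 and pMIR replicate 3.

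**Figure D2:**
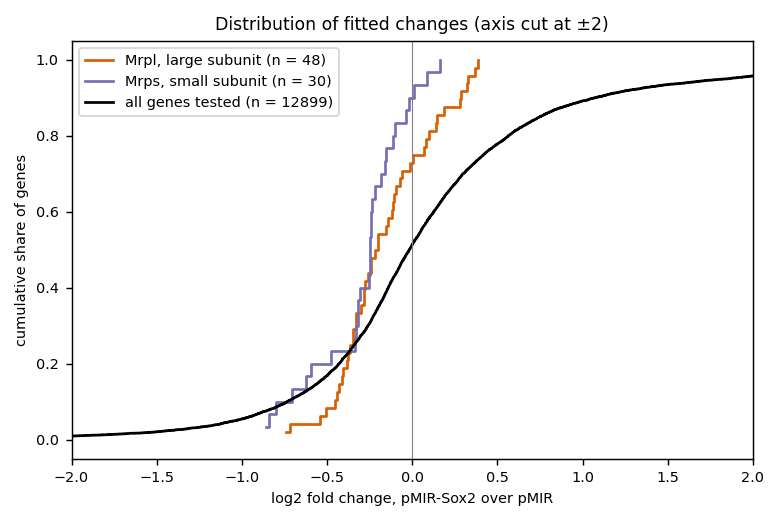
Cumulative share of genes (vertical axis) by fitted log2 fold change of pMIR-Sox2 over pMIR (horizontal axis, shown from -2 to 2) for the 48 tested large subunit genes, the 30 tested small subunit genes and all 12899 genes tested. The subunit curves end at 0.39 and 0.16, while the curve of all genes extends in both directions.

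Within the pMIR-Sox2 libraries, replicate 3 stood nearest to the pMIR libraries. It was the highest of the 3 pMIR-Sox2 libraries in 25 of the 28 members called lower, and the lowest in none of them. Relative to the pMIR mean, the median log2 difference over the large subunit was -0.25 and -0.27 in pMIR-Sox2 replicates 1 and 2 and -0.12 in replicate 3. Over the small subunit it was -0.32, -0.28 and -0.15 in pMIR-Sox2 replicates 1, 2 and 3. Replicate 3 also had the lowest Sox2 level of the 3, given above, and the part of that level in its values was not tested. Without it, 20 large subunit genes were lower and 2 were higher, and 14 small subunit genes were lower.

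**Figure D3:**
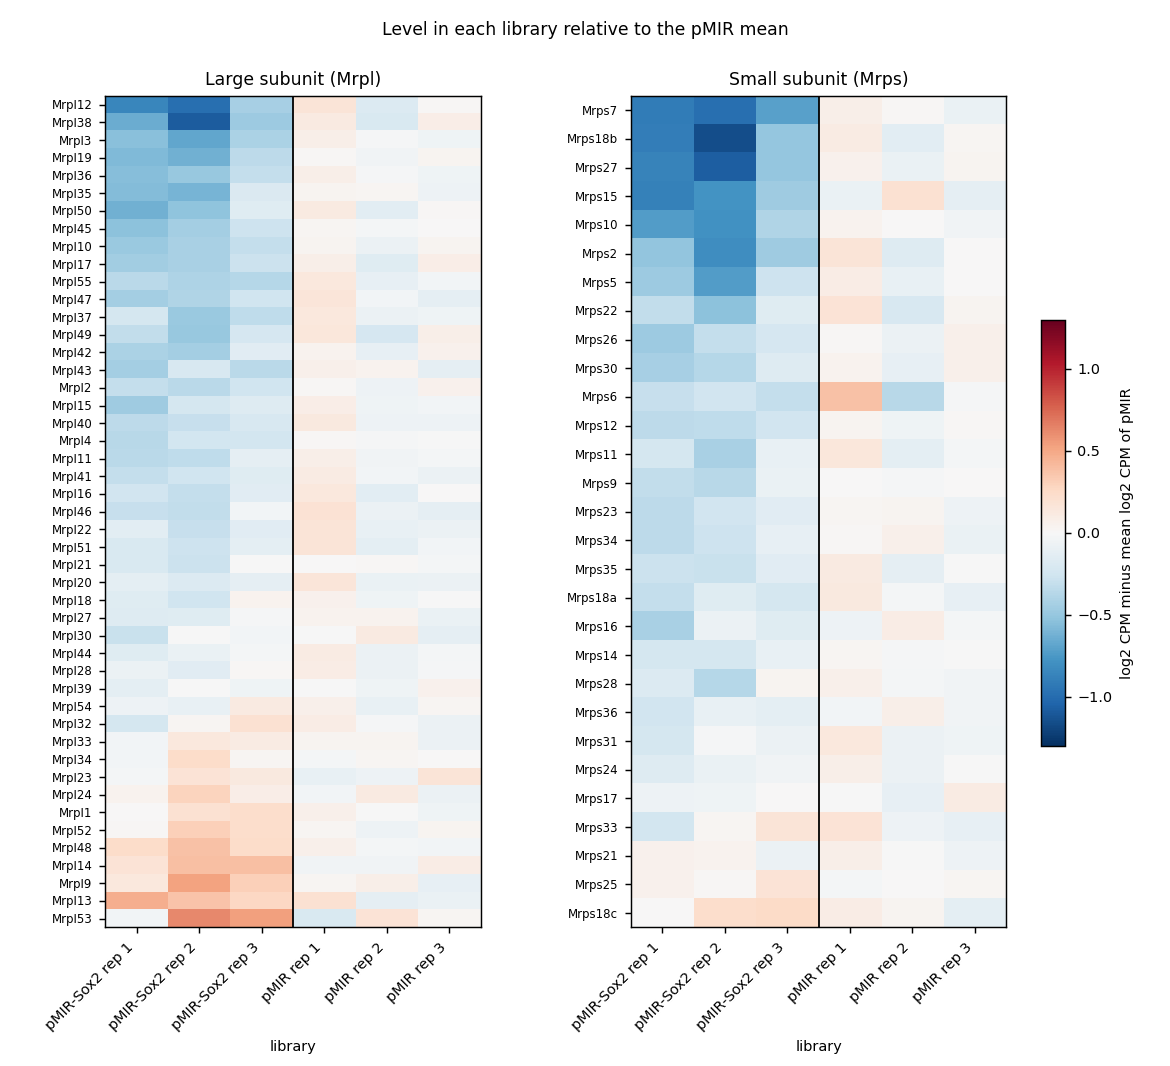
Level of each of the 76 members that are not pseudogenes (rows, ordered by fitted change) in each library (columns), as log2 CPM minus the mean log2 CPM of the pMIR libraries, with blue for lower and red for higher. The third pMIR-Sox2 column is paler than the others in the upper, lower-in-pMIR-Sox2 rows, and the pMIR columns are close to 0.

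The small subunit genes with the smallest adjusted p included several with bacterial counterparts. Mrps7 (ENSMUSG00000046756), which binds the small ribosomal RNA in the head of the subunit, had 73.0, 69.6 and 84.2 CPM in pMIR-Sox2 libraries and 144, 138 and 129 CPM in pMIR libraries. The groups did not overlap, and its log2 fold change was -0.86 ± 0.11 (SE, edgeR adjusted p = 0.000317). Mrps15, an early-binding protein of the small subunit in bacteria, had 45.3, 48.5 and 60.5 CPM in pMIR-Sox2 libraries and 78.8, 95.5 and 77.0 CPM in pMIR libraries, with a log2 fold change of -0.70 ± 0.14 (SE, edgeR adjusted p = 0.00332). Mrps10 had 22.5, 21.5 and 28.4 CPM in pMIR-Sox2 libraries and 38.4, 37.2 and 36.0 CPM in pMIR libraries, a log2 fold change of -0.63 ± 0.13 (SE, edgeR adjusted p = 0.00384). In none of these genes did the groups overlap. Mrps2 had a log2 fold change of -0.60 and an edgeR adjusted p of 0.00568. Mrps5 had -0.48 and 0.0154, and passed in every alternative except without pMIR replicate 1 (adjusted p = 0.062).

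Among small subunit genes listed here as specific to mitochondrial ribosomes, Mrps18b and Mrps27 fell by the largest amounts. Mrps18b, one of the 3 Mrps18 paralogs, had 17.4, 14.6 and 22.9 CPM in pMIR-Sox2 libraries and 35.0, 29.6 and 33.2 CPM in pMIR libraries, with a log2 fold change of -0.84 ± 0.17 (SE, edgeR adjusted p = 0.00348). Mrps27, a protein with pentatricopeptide repeats, had 26.0, 22.6 and 33.4 CPM in pMIR-Sox2 libraries and 49.3, 44.5 and 48.4 CPM in pMIR libraries, with -0.80 ± 0.14 (SE, edgeR adjusted p = 0.00229). The pMIR-Sox2 libraries lay below the pMIR libraries in both genes. Mrps26 had a smaller change of -0.33 (edgeR adjusted p = 0.0288), which did not pass without pMIR-Sox2 replicate 1 or 2, without pMIR replicate 1 or 3, with library totals or with no filter (adjusted p at most 0.105).

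The paralogs of Mrps18b and the Mrps-named genes whose products lie outside the small subunit had smaller fitted changes than Mrps18b. Mrps18a, whose product sits in the large subunit, had 45.8 ± 2.41 CPM in pMIR-Sox2 cells and 53.9 ± 4.5 CPM in pMIR cells (SD, n = 3 each), and its log2 fold change of -0.24 did not pass (edgeR adjusted p = 0.0949). Mrps18c, the paralog that holds the bacterial protein's place, had 42.6 ± 3.88 CPM in pMIR-Sox2 cells and 38.0 ± 2.92 CPM in pMIR cells (SD, n = 3 each), with a log2 fold change of 0.16 (edgeR adjusted p = 0.264). The groups overlapped in Mrps18c and not in Mrps18a. The differences between the paralogs' changes were not tested. Mrps30, also part of the large subunit, had a log2 fold change of -0.32 (edgeR adjusted p = 0.0378), which did not pass without pMIR-Sox2 replicate 1 or 2, without pMIR replicate 1 or 3, or with other filters or library totals. Mrps36, a subunit of the 2-oxoglutarate dehydrogenase complex and not of the ribosome, had 15.3 ± 0.848 CPM in pMIR-Sox2 cells and 17.1 ± 0.773 CPM in pMIR cells (SD, n = 3 each) and did not pass (edgeR adjusted p = 0.311). With genes placed by where their products sit, 19 of 49 large subunit genes were lower and 4 were higher, and 9 of 26 small subunit genes were lower.

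In the large subunit, the stalk that recruits translation factors held the gene with the largest fall. Mrpl12 (ENSMUSG00000039640), the stalk protein that also binds the mitochondrial RNA polymerase, had 63.6, 57.8 and 84.5 CPM in pMIR-Sox2 libraries and 128, 101 and 115 CPM in pMIR libraries. The groups did not overlap, and the log2 fold change was -0.74 ± 0.15 (SE, edgeR adjusted p = 0.00437). Mrpl10, which anchors the stalk, had 54.2, 56.6 and 61.1 CPM in pMIR-Sox2 libraries and 77.4, 72.1 and 77.9 CPM in pMIR libraries, with -0.40 ± 0.10 (SE, edgeR adjusted p = 0.00855). Mrpl11, at the base of the stalk, had a log2 fold change of -0.26 and did not pass (edgeR adjusted p = 0.0723). The stalk, exit tunnel and central protuberance groups were drawn up after the values were seen.

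The central protuberance, the part of the large subunit that faces the head of the small subunit, had 3 of 7 genes lower and 1 higher. Mrpl38, one of its proteins, had 30.6, 22.6 and 34.5 CPM in pMIR-Sox2 libraries and 52.0, 41.6 and 50.7 CPM in pMIR libraries, with a log2 fold change of -0.72 ± 0.16 (SE, edgeR adjusted p = 0.0067). Its neighbour Mrpl48 went the other way and is described with the genes that rose. Around the exit tunnel, through which new chains leave the ribosome, 3 of 8 genes were lower. Beside both of these small groups, 20.0% of all genes tested were lower and 23.2% were higher. Mrpl45, which ties the ribosome to the inner membrane, had 66.8, 71.0 and 79.8 CPM in pMIR-Sox2 libraries and 97.8, 94.9 and 96.5 CPM in pMIR libraries, with -0.41 ± 0.10 (SE, edgeR adjusted p = 0.00924). Mrpl17 had -0.39 (edgeR adjusted p = 0.0175), which did not pass without pMIR-Sox2 replicate 1, pMIR replicate 1 or pMIR replicate 3 (adjusted p = 0.0632, 0.0708 and 0.0755).

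Other large subunit genes with bacterial counterparts were lower as well. Mrpl3, whose bacterial counterpart reaches toward the peptidyl transferase centre, had 52.3, 47.7 and 57.4 CPM in pMIR-Sox2 libraries and 80.2, 75.4 and 73.0 CPM in pMIR libraries, with a log2 fold change of -0.54 ± 0.10 (SE, edgeR adjusted p = 0.00319). Mrpl19, whose bacterial counterpart lies at the interface with the small subunit, had 39.9, 38.5 and 46.9 CPM in pMIR-Sox2 libraries and 59.9, 57.5 and 60.7 CPM in pMIR libraries, with -0.51 ± 0.11 (SE, edgeR adjusted p = 0.00488). Mrpl36 had 30.4 ± 2.68 CPM in pMIR-Sox2 cells and 41.5 ± 1.9 CPM in pMIR cells (SD, n = 3 each), with -0.45 ± 0.11 (SE, edgeR adjusted p = 0.00803). The groups of these genes did not overlap. Of the 28 members called lower, 13 passed in all 13 alternatives tried, and these were Mrpl3, Mrpl10, Mrpl12, Mrpl19, Mrpl36, Mrpl38, Mrpl45, Mrps2, Mrps7, Mrps10, Mrps15, Mrps18b and Mrps27.

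The 4 genes that rose were all in the large subunit, and none of them passed in every alternative. Mrpl13, the counterpart of an early assembly protein of bacterial ribosomes, had 115, 107 and 100 CPM in pMIR-Sox2 libraries and 95.1, 76.5 and 77.9 CPM in pMIR libraries, with a log2 fold change of 0.37 ± 0.11 (SE, edgeR adjusted p = 0.0282). It did not pass without pMIR-Sox2 replicate 1, pMIR replicate 2 or pMIR replicate 3 (adjusted p = 0.0879, 0.0943 and 0.117). Mrpl9 had 103, 135 and 116 CPM in pMIR-Sox2 libraries and 95.3, 99.1 and 87.4 CPM in pMIR libraries, with 0.33 ± 0.12 (SE, edgeR adjusted p = 0.0496). Mrpl9 did not pass with limma-voom (adjusted p = 0.0535) or without any of 5 of the 6 libraries, the exception being pMIR-Sox2 replicate 1. Mrpl14, which lies at the interface between the subunits, had 37.2, 43.1 and 43.0 CPM in pMIR-Sox2 libraries and 31.7, 31.9 and 35.0 CPM in pMIR libraries, with 0.32 ± 0.11 (SE, edgeR adjusted p = 0.0359). It too did not pass in 5 of 6 cases with 1 library left out, again with pMIR-Sox2 replicate 1 as the exception. Mrpl48 had 40.7, 44.8 and 40.6 CPM in pMIR-Sox2 libraries and 36.0, 33.7 and 33.5 CPM in pMIR libraries, with 0.29 ± 0.10 (SE, edgeR adjusted p = 0.0407). With 1 library left out it passed only when that library was pMIR-Sox2 replicate 3, and it did not pass with no filter (adjusted p = 0.0735). In each of the 4 genes the groups did not overlap.

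Summed over its genes, the large subunit stood at 1998, 2078 and 2224 CPM in pMIR-Sox2 libraries and 2494, 2291 and 2332 CPM in pMIR libraries. The small subunit stood at 996.6, 1009 and 1137 CPM in pMIR-Sox2 libraries and 1381, 1299 and 1303 CPM in pMIR libraries. Neither sum overlapped between the groups. The ratio of large to small was 2.01 ± 0.0515 in pMIR-Sox2 cells and 1.79 ± 0.0212 in pMIR cells (SD, n = 3 each), and all pMIR-Sox2 libraries were above all pMIR libraries. The difference in log2 ratio was 0.167, with no test. These sums went by symbol, so Mrps18a, Mrps30 and Mrps36 were counted to the small subunit. With genes placed by where their products sit, the log2 ratio was 1.25 ± 0.0448 in pMIR-Sox2 cells. It was 1.08 ± 0.0203 in pMIR cells (SD, n = 3 each), a difference of 0.171. Mrps7 alone accounted for 21.9% of the difference of -280 CPM in the small subunit sum, and Mrps15 for 11.5%. Mrpl12 accounted for 17.0% of the difference of -272 CPM in the large subunit sum, while Mrpl13 and Mrpl9 were higher by 24.1 and 24.0 CPM. Taken as a mean of log2 CPM over members, which weights each gene equally, the subunit difference was 0.128.

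**Figure D4:**
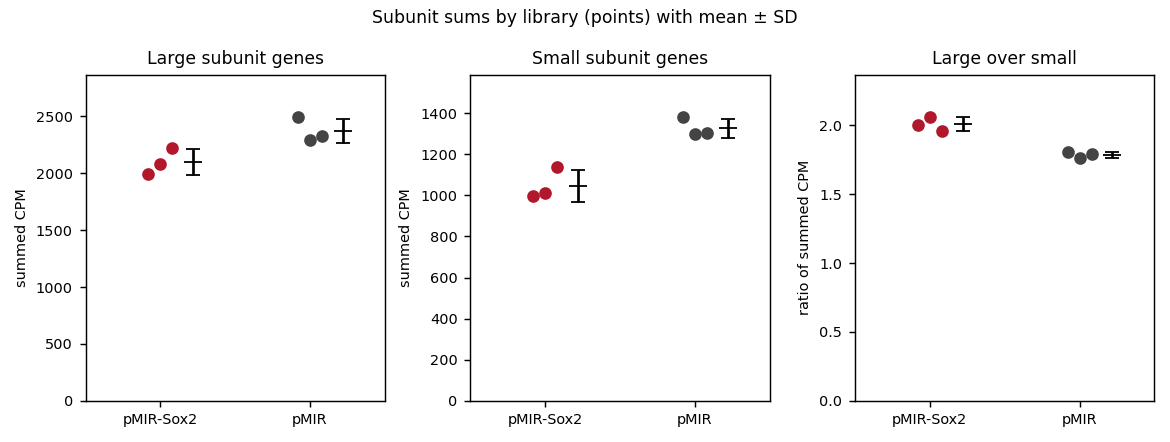
Summed CPM of the large subunit genes (left), of the small subunit genes (middle) and their ratio (right) in each of the 3 pMIR-Sox2 and 3 pMIR libraries, with mean and SD beside the points and axes from 0. The pMIR-Sox2 points lie below the pMIR points in the sums and above them in the ratio.

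Genes that were lower were found both among proteins with bacterial counterparts and among those of mitochondrial ribosomes only. In the large subunit, 11 of 30 genes with counterparts were lower and 3 were higher, with a median log2 fold change of -0.18, and 7 of 17 without were lower and 1 was higher, with a median of -0.24. In the small subunit, 6 of 16 genes with counterparts were lower, with a median of -0.25, and 3 of 10 listed without were lower, with a median of -0.24. These 10 include Mrps18b, although its paralog Mrps18c is among the 16. No test of these differences was made, and of all genes tested 20.0% were lower and 23.2% were higher. Levels per kilobase of exon were taken for 46 large subunit genes that are not pseudogenes. Mrpl33 had no matched length and was not ranked. Averaged over all 6 libraries, Mrpl54 and Mrpl18 had the highest levels of these 46. They stood at 79.2 ± 6.54 and 63.1 ± 7.08 CPM per kb in pMIR-Sox2 cells against 79.8 ± 4.52 and 68.4 ± 2.56 CPM per kb in pMIR cells (SD, n = 3 each). Mrpl12, at 44.8 ± 9.2 CPM per kb in pMIR-Sox2 cells and 74.9 ± 8.85 in pMIR cells, was above Mrpl18 in the pMIR mean. In the small subunit the highest by the same average were Mrps21, at 51.8 ± 2.78 CPM per kb in pMIR-Sox2 cells and 51.4 ± 2.5 in pMIR cells, and Mrps7, at 36.5 ± 3.67 in pMIR-Sox2 cells and 66.1 ± 3.62 in pMIR cells. Mrps18c, at 39.6 ± 3.59 CPM per kb in pMIR-Sox2 cells and 35.3 ± 2.73 in pMIR cells, was above Mrps7 in the pMIR-Sox2 mean. Mrpl54, Mrpl18 and Mrps21 overlapped between the groups and did not pass. Exons of Mrpl53, Mrps34 and Mrps25 overlap other genes over 88.0, 77.8 and 69.8% of their length, and none of these was called. Among called members the largest overlaps were 36.0% in Mrpl19, 33.4% in Mrpl43, 30.5% in Mrps18b and 24.2% each in Mrps27 and Mrpl47. With the strand setting not given, reads from the overlapping stretches cannot be assigned to either gene with certainty.

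The 5 promoters shown come from the genes with the smallest adjusted p in each subunit and direction that have a single entry in the promoter table and no exon of another gene in the window. Each runs from 250 bases before the start of the RefSeq gene to the base before it, in the GRCm38.p6 build. Capitals mark matches on either strand to an NRF1 motif (GCGCA and GCGC with 1 base of any kind between them), an ETS motif (CCGGAAG), an E-box (CACGTG) or a YY1 motif (AAGATGGCG).
Mrps15, chr4:126046678-126046927, plus strand: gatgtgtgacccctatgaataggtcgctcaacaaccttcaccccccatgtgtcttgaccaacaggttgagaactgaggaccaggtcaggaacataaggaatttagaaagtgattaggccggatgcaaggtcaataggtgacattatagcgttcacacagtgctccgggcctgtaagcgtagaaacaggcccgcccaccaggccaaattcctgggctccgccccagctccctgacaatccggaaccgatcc
Mrps10, chr17:47368947-47369196, plus strand: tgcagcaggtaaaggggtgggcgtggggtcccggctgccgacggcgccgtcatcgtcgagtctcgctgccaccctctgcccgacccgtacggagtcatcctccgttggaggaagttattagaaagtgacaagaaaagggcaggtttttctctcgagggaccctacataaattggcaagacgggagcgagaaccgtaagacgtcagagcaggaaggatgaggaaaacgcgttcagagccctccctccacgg
Mrpl3, chr9:105053018-105053267, plus strand: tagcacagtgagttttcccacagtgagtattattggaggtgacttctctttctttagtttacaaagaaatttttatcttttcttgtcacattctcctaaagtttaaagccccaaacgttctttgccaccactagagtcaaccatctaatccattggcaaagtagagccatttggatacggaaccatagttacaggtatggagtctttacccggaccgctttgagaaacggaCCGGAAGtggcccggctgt
Mrpl12, chr11:120484387-120484636, plus strand: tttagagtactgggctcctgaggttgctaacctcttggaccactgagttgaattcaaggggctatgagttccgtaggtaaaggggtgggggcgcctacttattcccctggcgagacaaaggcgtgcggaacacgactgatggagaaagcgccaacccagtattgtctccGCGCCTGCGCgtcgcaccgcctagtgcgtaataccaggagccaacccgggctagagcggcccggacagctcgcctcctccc
Mrpl9, chr3:94443086-94443335, plus strand: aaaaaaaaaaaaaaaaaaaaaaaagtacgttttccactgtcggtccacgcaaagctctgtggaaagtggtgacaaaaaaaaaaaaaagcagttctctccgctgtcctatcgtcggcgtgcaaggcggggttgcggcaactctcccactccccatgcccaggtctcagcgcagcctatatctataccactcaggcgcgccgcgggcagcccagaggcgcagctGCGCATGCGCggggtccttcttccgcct

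The Mrpl3 promoter holds an ETS match that begins 19 bases before the start, and NRF1 matches begin 81 bases before the start of Mrpl12 and 28 before that of Mrpl9. The windows of Mrps15 and Mrps10 hold no match to the marked motifs. A promoter entry matched 67 of 80 member symbols, and 64 had a single entry. The ETS letters occurred in 23.4% of these 64 members, 15.3% of the 6886 genes tested whose promoters were scanned and 7.09% of all 22862 promoters. The NRF1 letters occurred in 14.1%, 9.15% and 3.82% of these sets. The E-box occurred in 6.25%, 8.63% and 5.92% of them, and the YY1 letters in 3.12%, 1.25% and 0.59%. Letters not marked above were counted as well. Sox letters (ACAATG) occurred in 6.25% of members, 5.84% of genes tested and 11.2% of all promoters. A GC box (GGGCGG) was rarer in members than in genes tested, at 45.3%, 61.7% and 32.4% in the same order. The CCAAT letters occurred in 35.9%, 37.8% and 34.7%. Among the 24 scanned members called lower, 20.8% held the ETS letters and 12.5% the NRF1 letters. Among the 38 scanned members that did not pass, 26.3% and 13.2% did. These matches are letter matches in the reference sequence and no binding was measured.

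Proteins of the mitochondrial ribosome that carry other symbols did not all move with the members. Ict1, a large subunit protein that frees stalled chains, had 47.2, 63.6 and 50.5 CPM in pMIR-Sox2 libraries and 24.9, 25.1 and 27.2 CPM in pMIR libraries, with a log2 fold change of 1.06 ± 0.13 (SE, edgeR adjusted p = 0.000299). The large subunit protein Gadd45gip1 was lower, with 53.1 ± 6.59 CPM in pMIR-Sox2 cells and 78.3 ± 2.91 CPM in pMIR cells (SD, n = 3 each) and -0.56 ± 0.11 (SE, edgeR adjusted p = 0.00358). Mrp63 did not pass, with a log2 fold change of -0.15. In the small subunit, Ptcd3 had -0.52 (edgeR adjusted p = 0.0135, and 0.0556 without pMIR replicate 1) and Dap3 had -0.30 (edgeR adjusted p = 0.0368, and not past the threshold without pMIR-Sox2 replicate 1 or 2, without pMIR replicate 1 or 3, with library totals or with other filters, at up to 0.129). Chchd1 and Aurkaip1 had -0.26 and -0.20 and did not pass (edgeR adjusted p = 0.058 and 0.14).

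The ribosomal RNAs and messenger RNAs of mitochondrial DNA held few calls. The large ribosomal RNA mt-Rnr2 had 3410, 4450 and 4690 CPM in pMIR-Sox2 libraries and 4720, 6030 and 6860 CPM in pMIR libraries, with a log2 fold change of -0.49 ± 0.18 (SE, edgeR adjusted p = 0.0491), which did not pass without pMIR-Sox2 replicate 1 or 2, without pMIR replicate 2 or 3, with library totals or with a filter of 10 or more counts (adjusted p up to 0.195). The small ribosomal RNA mt-Rnr1 had -0.56 and did not pass (edgeR adjusted p = 0.0954), with groups that overlap. With the replicate number as a block, or without pMIR replicate 1, both passed. Of 13 messenger RNAs, mt-Atp6, mt-Atp8, mt-Co3, mt-Nd3 and mt-Nd4l had 10 to 64 counts over all libraries and were not tested, and mt-Co2, which was, had 110 counts beside 1892977 for mt-Co1. Alignments that were not unique, 23.1 to 26.5% of a library's total, were counted to no gene. Their part in these low counts was not tested. Of the 8 messenger RNAs tested, 0 were called by edgeR, DESeq2 or limma-voom and 1 was lower at an unadjusted p below 0.05, with a median of -0.17. With the block 2 were lower, among them mt-Nd1 (adjusted p = 0.0315, and 0.233 without the block), and 2 were also lower without pMIR-Sox2 replicate 3 and 1 without pMIR replicate 1. The level of mt-Co1 was 15500 ± 2630 CPM in pMIR-Sox2 cells and 15000 ± 2760 CPM in pMIR cells (SD, n = 3 each).

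Nuclear genes of mitochondrial gene expression held calls in both directions, to be read against the 43.2% of all genes tested that were called, 20.0% lower and 23.2% higher. Of 25 assembly genes tested, 8 were lower (32%) and 3 were higher (12%), with a median log2 fold change of -0.23. Mettl15, which methylates the small ribosomal RNA, had 12.3 ± 1.76 CPM in pMIR-Sox2 cells and 5.36 ± 0.551 CPM in pMIR cells (SD, n = 3 each), with 1.20 ± 0.17 (SE, edgeR adjusted p = 0.000621). Mpv17l2 and the pseudouridine synthase Rpusd4, which acts on the large ribosomal RNA, were lower, with -0.83 and -0.76 (edgeR adjusted p = 0.000657 and 0.00192). Of 14 translation factors, 4 were lower and 1 was higher (2 higher with library totals). The initiation factor Mtif2 had 63.7 ± 2.79 CPM in pMIR-Sox2 cells and 39.9 ± 2.81 CPM in pMIR cells (SD, n = 3 each), with 0.68 ± 0.10 (SE, edgeR adjusted p = 0.000756). Lrpprc, which stabilises mitochondrial messenger RNA, and the recycling factor Gfm2 were lower, with -0.68 and -0.39 (edgeR adjusted p = 0.00461 and 0.00677).

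Of 19 mitochondrial aminoacyl-tRNA synthetase and amidotransferase genes, 4 were lower, with a median of -0.17, and none was higher by edgeR, DESeq2 or limma-voom (0 at an unadjusted p below 0.05). Gatc, Rars2 and Yars2 had -0.45, -0.40 and -0.60 (edgeR adjusted p = 0.0115, 0.0124 and 0.017), and Yars2 did not pass without pMIR-Sox2 replicate 1, pMIR replicate 1 or pMIR replicate 3. The count was 2 without pMIR replicate 1 or 3. Of 15 genes of mitochondrial DNA expression, 7 were lower and 2 were higher, with a median of -0.29, and 1 was lower without pMIR replicate 1 and 4 without pMIR replicate 3. The RNA helicase Supv3l1 had -0.59, Elac2, which cuts tRNA ends, -0.62, and the polynucleotide phosphorylase Pnpt1 0.59 (edgeR adjusted p = 0.00703, 0.0114 and 0.00942), and Elac2 had 0.0505 without pMIR replicate 1. The count of higher genes was 1 when pMIR-Sox2 replicate 2 or any of the pMIR replicates was left out.

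Among 9 regulators of mitochondrial biogenesis, 3 were lower and 2 were higher. The coactivator Ppargc1a had 2.61 ± 0.0834 CPM in pMIR-Sox2 cells and 0.671 ± 0.255 CPM in pMIR cells (SD, n = 3 each), with 1.97 ± 0.30 (SE, edgeR adjusted p = 0.000862). Its counts were low, at 12 to 56 in each library. Myc, a transcription factor of cell growth, had 209, 176 and 244 CPM in pMIR-Sox2 libraries and 507, 335 and 398 CPM in pMIR libraries, with -0.98 ± 0.17 (SE, edgeR adjusted p = 0.00194). Pprc1, a coactivator, had -1.10 (edgeR adjusted p = 0.00377). Ppargc1b was lower, with -1.01, and Yy1 was higher, with 0.31 (edgeR adjusted p = 0.00915 and 0.0211). Nrf1, Esrra, Gabpb1 and Gabpa did not pass. The count of higher regulators was 1 when any of the pMIR replicates was left out. Of 81 cytoplasmic ribosomal protein genes tested, 1 was lower and 80 did not pass, with a median log2 fold change of -0.16. A negative fitted change was found in 80 of these 81, against 62 of the 78 tested members and 51.3% of all genes tested. In 22 of the 81 the groups did not overlap, all of them lower, beside 27.6% lower without overlap among all genes tested.

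**Figure D5:**
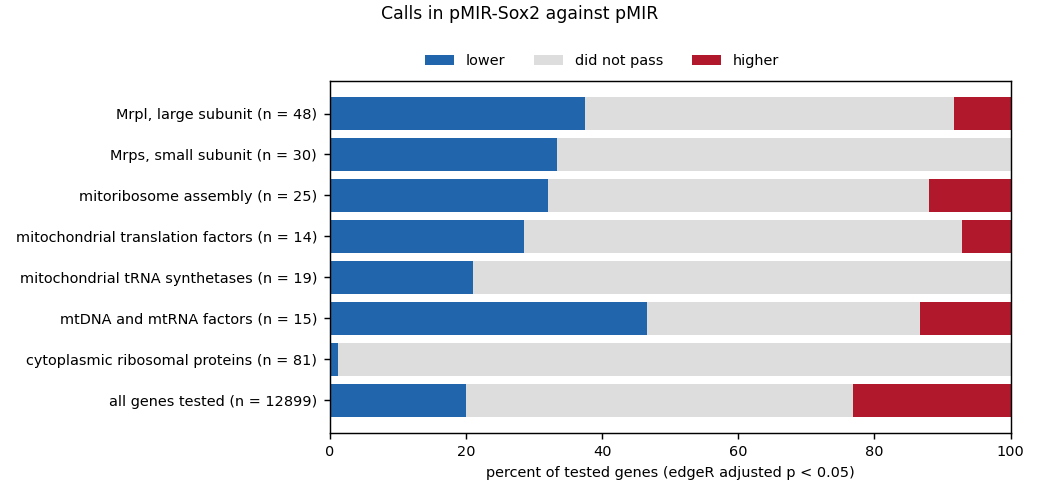
Percent of tested genes in each list (bars, horizontal axis) that were lower (blue), did not pass (grey) or were higher (red) in pMIR-Sox2 against pMIR at an edgeR adjusted p below 0.05. The lists are the 2 subunits of the mitochondrial ribosome, 4 other lists of mitochondrial gene expression, the cytoplasmic ribosomal proteins and all genes tested.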

How the data were processed

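The authors deposited a table of raw read counts, with a row for each Ensembl gene, for 3 pMIR-Sox2 and 3 pMIR libraries. The submitters' processing notes name the build mm9 and, in no order and with no role, HTSeq 0.6.1p1, SAMtools 0.1.19, Bowtie2 2.2.2, TopHat2 2.0.11 and Trimmomatic 0.32. How strand was counted, and with which annotation, is not given in the sources used here. At its end the deposited table has 5 lines that name no gene (between 46.8 and 48.1% of a library's total) and stayed out of library sizes and tests.

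The test of each gene was edgeR 4.0.16 in R 4.3.3 (filterByExpr, TMM, robust quasi-likelihood fits, pMIR-Sox2 over pMIR) over 12899 genes with Benjamini-Hochberg adjustment and a threshold of 0.05. CPM are counts over the library's effective size, on the usual per-megaread scale. SE is the size of the log2 fold change over the square root of F. Alternatives used DESeq2 1.42.0, limma 3.58.1 (voom), other scalings and filters, each library left out, and the replicate number as a block. Gene lengths, overlaps and neighbours came from GENCODE M21 (79 of 80 identifiers matched) and promoters from RefSeq, on GRCm38, another build than mm9.

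Replicate numbers are shared by the groups, and the sample descriptions carry the same number, 8, 9 or 12, for each pair. Deviations from the group mean correlated over the genes tested at 0.24, 0.36 and 0.19 in same-numbered pairs and at -0.24 to 0.03 in the others. The numbers were therefore taken to pair the samples. Deviations in a group of 3 sum to 0, so the values of matched and unmatched pairs are not independent. Over the members that are not pseudogenes, same-numbered pairs had 0.51, 0.49 and 0.17, and the others had -0.54 to 0.1. The main fit had no block and did not use this pairing, and the members' calls with the block are given beside its own. The labels do not say whether replicates were separate animals, so the p-values rest on the spread among these libraries alone, which may be technical.

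The members and lists were chosen with earlier results of these data known. Members named are, per subunit, up to 8 with the smallest adjusted p in each direction and the 2 highest per exon length, Mrps18a, Mrps18b, Mrps18c, Mrps30, Mrps36, and those not tested. From each other list the rule took up to 3 genes with the smallest adjusted p past the threshold, or else the 2 highest in CPM. Other genes named were chosen after their values were seen.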

Additional observations from a re-analysis of the deposited data

How the results depend on the processing

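Scaling by library totals alone gave 9 large subunit genes lower, and fitting with no expression filter gave 11, against 18 in the design as written. Leaving out 1 library at a time gave 7 to 20 large subunit genes lower, 0 to 2 higher against 4, and 6 to 14 small subunit genes lower against 10. The lowest counts of lower genes came without pMIR replicate 1. The difference between the groups in the log2 ratio of large to small subunit was 0.167 from the sums and 0.128 from means of log2 CPM over members. With the replicate block, the count of genes changed was 6801, against 5568 without it, with 21 large subunit genes lower, 4 higher and 13 small subunit genes lower. All 28 lower and 4 higher members kept their call under the replicate block, and among the members the block otherwise added only the 6 calls named above. No called member changed direction in any alternative. The medians of both subunits stayed negative in every alternative run, whereas the median of all genes tested, -0.016 in the design as written, was positive with library totals (0.06), no filter (0.027) and 10 or more counts (0.01). The cause of these changes was not tested. With 3 libraries per group, members with changes of about 0.3 log2 units lay near the threshold.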

Other observations

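Values of neighbouring genes were read from the annotation after the members' values were seen. An opposite-strand protein-coding gene started within 1000 bases upstream of 17 of 75 tested protein-coding members (22.7%), as it did for 11% of the 11556 protein-coding genes tested. Of the 9 lower members with such a neighbour, 3 had a neighbour that was higher, while 23.2% of all genes tested were higher. A link between the changes of neighbours was not tested. Lrrc46, 153 bases from Mrpl10, had 1.33 CPM in pMIR-Sox2 cells and 0.346 CPM in pMIR cells, with a log2 fold change of 1.93 (edgeR adjusted p = 0.00358). Klc4, 207 bases from Mrpl2, had 0.92 (edgeR adjusted p = 0.000654), and Zfp189, 83 bases from Mrpl50, had 0.58 (edgeR adjusted p = 0.0216). Ptcd2, 81 bases from Mrps27, was lower with its neighbour, at -0.42 (edgeR adjusted p = 0.018). Counts were given without a stated strand setting, so reads from overlapping opposite-strand transcripts cannot be told apart.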
